A study of Mus musculus with 2 samples.

Results

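Rela, Rel, Relb, Nfkb1 and Nfkb2 encode the subunits of NF-κB, and their UMIs were followed in fetal liver cells that lack the NF-κB inhibitor IκBα. All 5 genes were chosen by name, from 32285 genes in the deposited tables. The cells came from E14.5 livers of CD1 mice, were depleted of lineage-positive cells and sorted as LSK, the SCA1+ cKIT+ fraction in which blood stem and progenitor cells lie, and were profiled with the 10x 3′ v3 chemistry. The WT library pooled 2 IκBα WT embryos and the KO library pooled 3 IκBα KO embryos, which per the study's methods carry the Nfkbia tm1Bal allele. Their titles speak of LT-HSCs, but the sort and the cell type entry give LSK.

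NF-κB acts as a dimer of Rel proteins. RelA (p65), c-Rel and RelB carry a transactivation domain, while Nfkb1 and Nfkb2 encode the precursors p105 and p100, which are processed to p50 and p52 and need a partner to activate genes. In the canonical route IκB proteins hold RelA and c-Rel dimers in the cytoplasm until the IKK complex marks them for degradation. In the non-canonical route NIK drives the processing of p100, which frees RelB with p52. Rel, Relb, Nfkb1, Nfkb2 and Nfkbia are known NF-κB targets themselves in many cell types.

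The genes lie on mouse chromosomes 19, 11, 7 and 3 (GRCm38, GENCODE vM21). Rela spans chr19:5637483-5648130 on the plus strand, Rel chr11:23736847-23770970 on the minus strand, and Relb chr7:19606217-19629438 on the minus strand. Nfkb1 spans chr3:135584655-135691547 on the minus strand and Nfkb2 chr19:46304320-46312385 on the plus strand. The last 299 bases of Nfkb2 overlap Psd on the opposite strand, and within Nfkb1 lies Gm43430, a gene model on its own strand. The first 1292 bases of Nfkb2 overlap AC114539.1, also on the opposite strand. Cell Ranger was run with default parameters, which count the sense strand, so of these overlaps only that in Nfkb1 lies on the counted strand. The part of Gm43430 in the Nfkb1 UMIs was not tested.

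The κB motif, to which NF-κB dimers bind, was searched on both strands in the 250 bases before the RefSeq start sites of Rela, Rel and Nfkb2, the 3 of the 5 genes with windows in the table used (GRCm38.p6). It was present upstream of Rel and of all 3 Nfkb2 starts, and was not found in the Rela window. Of all 32851 windows of that length, 1281 (3.90%) held at least 1 match. The matches are printed because these genes are described below with the inhibitor removed. They are 30 bases each, on the strand of the gene, with the matching bases in capitals, and a match is a description of letters only.
Nfkb2, chr19:46304688-46304717, before the first start: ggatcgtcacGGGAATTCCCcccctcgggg
Nfkb2, chr19:46304716-46304745, before the first start: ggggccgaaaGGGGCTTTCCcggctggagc
Nfkb2, chr19:46305449-46305478, before the second start, matching on the opposite strand: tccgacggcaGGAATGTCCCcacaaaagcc
Nfkb2, chr19:46305695-46305724, before the third start: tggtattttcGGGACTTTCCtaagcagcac
Rel, chr11:23771042-23771071, before the start: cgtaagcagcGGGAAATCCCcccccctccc
The first Nfkb2 site and the Rel site each overlap another match, shifted by 1 base on the opposite strand. All 4 Nfkb2 stretches lie wholly or mostly in exons of an annotated transcript of either strand, and the Rel stretch lies outside exons.

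The tables held 3840 WT and 4928 KO barcodes, of which 3458 and 4417 cells were kept, with medians of 28065 and 19560 UMIs per cell, and 7 barcodes occurred in both libraries. Nfkbia, the deleted gene, had 1478 UMIs in WT cells and 7 in KO cells, in keeping with the labels. Cells were placed in 8 gates by 6 marker genes each, and cells that passed more than 1 gate (201 WT and 232 KO) were left out of the gates. Since the gates were drawn on these markers, their presence there is fixed by the rule. Among the 10 leading genes of a gate in both libraries were others that the rule did not use, such as Nkx2-3 in the stem, Ebf1 and Ighm in the lymphoid, S100a8 and S100a9 in the neutrophil, Hba-a1 in the erythroid, Treml1 in the megakaryocyte, Hmox1 and Aif1 in the macrophage, Sparc in the endothelial and Ttr in the hepatocyte gate. The lymphoid marker Dntt was at 0 in the WT lymphoid gate. The gates held 418 WT and 318 KO stem, 159 and 155 lymphoid, 116 and 167 neutrophil, 1508 and 2030 erythroid, 27 and 51 megakaryocyte, 28 and 74 macrophage, 47 and 63 endothelial, and 19 and 40 hepatocyte cells, and 935 WT and 1287 KO cells passed none. Another 660 WT and 708 KO cells were 1 marker short of the stem gate. By Xist and Y-linked UMIs, 95.9% of WT cells were female and 0.116% male, against 69.4% and 17.4% of KO cells.

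Each genotype was 1 library, so differences carry no replicate check and no test. Values are counts per 1000000 UMIs of a gate (CPM), and the 95% intervals in brackets cover counting error only. A 3′ tag gives about 1 UMI per captured transcript, so CPM were not divided by gene length.

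The 5 genes together made up 114.5 CPM in the stem gate of WT (877 UMIs) and 121.0 CPM in that of KO (532 UMIs), against 49.97 and 48.7 CPM in the erythroid gate. The stem gate thus exceeded the erythroid gate by 1.20 (1.09 to 1.31) on the log2 scale in WT and by 1.31 (1.18 to 1.45) in KO. The endothelial gate was the highest in both libraries, at 144.5 CPM for WT and 166.0 for KO. With every cell thinned to 8000 UMIs, a UMI of any of the 5 genes was seen in 62.9% of WT and 58.5% of KO stem cells, and in 28.1% and 26.9% of erythroid cells.

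**Figure D1:**
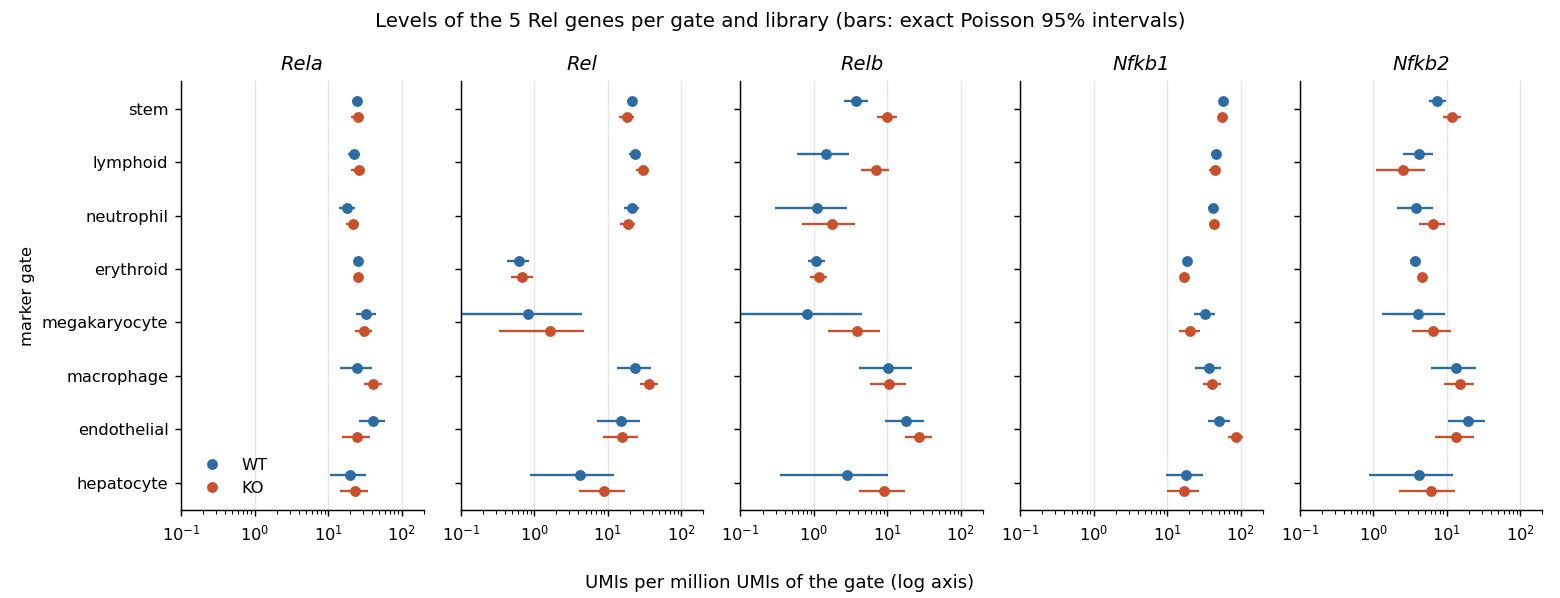
CPM (log axis) of each gene in the 8 gates, WT in blue and KO in red, 1 library each, with bars for exact Poisson 95% intervals (cut off at 0.1). Rela stays between 18.1 and 41.3 CPM in every gate and library, while Rel is at 0.61 CPM in the WT erythroid gate and Relb is highest in the endothelial gate.

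Rela, which encodes the p65 subunit of the canonical dimer, was the most even of the 5 genes. In WT it measured 24.8 CPM in the stem, 22.6 in the lymphoid, 18.1 in the neutrophil, 25.7 in the erythroid, 33.3 in the megakaryocyte, 25.1 in the macrophage, 40.7 in the endothelial and 19.6 in the hepatocyte gate. The KO values in the same order were 25.2, 26.0, 21.6, 25.4, 31.0, 41.3, 24.5 and 23.0 CPM. The highest gate exceeded the lowest by 2.25-fold in WT and by 1.91-fold in KO. None of the 7 neighbouring pairs in the order was separated in either library, but the highest and lowest gates were. In WT the endothelial gate exceeded the neutrophil gate by 1.17 (0.46 to 1.83) on the log2 scale. In KO the macrophage gate exceeded the neutrophil gate by 0.93 (0.42 to 1.44). Neither of these pairs was separated in the other library. The order itself did not carry over between the libraries, since the endothelial gate came first in WT and below the stem gate in KO. The stem and erythroid gates differed by -0.05 (-0.28 to 0.17) on the log2 scale in WT and by -0.01 (-0.30 to 0.27) in KO.

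Rel, which encodes c-Rel, a subunit best known from lymphoid and myeloid cells, showed the widest range. It was highest in the macrophage gate, at 23.6 CPM (13.5 to 38.4) in WT and 36.8 (27.2 to 48.6) in KO. The lymphoid gate followed with 23.5 CPM in WT and 29.8 in KO, the stem gate with 21.4 and 18.2, and the neutrophil gate with 21.1 and 18.6. These 4 gates were not separated from their neighbours in WT, while in KO the lymphoid gate exceeded the neutrophil gate by 0.68 (0.23 to 1.14) on the log2 scale. Endothelial cells measured 15.1 CPM in WT and 15.6 in KO, hepatocytes 4.21 and 8.99, and megakaryocytes 0.81 and 1.63, the last from 1 and 3 UMIs. The hepatocyte gate exceeded the megakaryocyte gate in KO, by 2.46 (0.46 to 4.99), and no other neighbouring pair was separated. The erythroid gate was lowest, with 34 UMIs in WT (0.61 CPM, 0.42 to 0.86) and 36 in KO (0.69 CPM, 0.48 to 0.95). The stem gate stood above the erythroid gate by 5.13 (4.59 to 5.71) on the log2 scale in WT and by 4.73 (4.14 to 5.33) in KO.

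The share of cells with a Rel UMI followed the same split. After thinning, 12.7% (9.59 to 16.3) of WT and 12.1% (8.41 to 16.6) of KO stem cells had one, against 0.47% and 0.35% of erythroid cells. Without thinning the shares were 28.9% and 20.1% in the stem gate and 1.53% and 1.63% in the erythroid gate, although erythroid cells were deeper, with medians of 35263 UMIs in WT and 23736 in KO against 17088 and 12183 in stem cells. The 34 erythroid Rel UMIs of WT lay in 23 cells, with at most 4 in 1 cell. The 36 of KO lay in 33 cells, with at most 2. The part of free RNA in these counts was not tested, and no expression in erythroid cells was read from them.

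Relb, the partner of p52 in the non-canonical route, was low in blood progenitors and highest in the endothelial gate, at 18.1 CPM (9.34 to 31.6) in WT and 26.7 (17.1 to 39.8) in KO. The macrophage gate came next, with 10.3 CPM in WT and 10.5 in KO. The stem gate followed in both libraries, with 3.79 CPM (2.54 to 5.44) from 29 UMIs in WT and 10.0 CPM (7.27 to 13.4) from 44 UMIs in KO. The hepatocyte gate had 2.81 and 8.99 CPM, from 2 and 9 UMIs.
Lymphoid cells measured 1.47 CPM (0.59 to 3.02) in WT, which overlapped the erythroid level of 1.08 CPM (0.83 to 1.39), and 6.98 CPM (4.37 to 10.6) in KO, which did not overlap the erythroid 1.17 CPM (0.89 to 1.50). Neutrophils had 1.10 CPM in WT and 1.74 in KO, and megakaryocytes 0.81 and 3.80, each from 7 UMIs or fewer. The stem gate exceeded the erythroid gate by 1.81 (1.12 to 2.47) on the log2 scale in WT and by 3.10 (2.51 to 3.68) in KO. Of the neighbouring gates, only macrophage against stem in WT and endothelial against macrophage in KO were separated, by 1.45 (0.01 to 2.67) and 1.35 (0.34 to 2.41).

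Nfkb1, the p105 and p50 gene, was the most abundant of the family in the stem, lymphoid, neutrophil and endothelial gates. The same held in cells that passed no gate. In the macrophage gate it led in WT and was level with Rela in KO, at 55 UMIs each. It measured 57.1 CPM (51.8 to 62.7) in WT and 55.7 (48.9 to 63.1) in KO stem cells. The endothelial gate had 51.2 CPM in WT and 85.8 in KO, the lymphoid gate 45.7 and 44.7, the neutrophil gate 42.2 and 43.2, and the macrophage gate 36.9 and 41.3. Megakaryocytes followed with 32.5 CPM in WT and 20.6 in KO. It was lowest in the erythroid gate, with 18.9 and 16.8 CPM, and in the hepatocyte gate, with 18.2 and 17.0, which were not separated from each other. In KO the endothelial gate exceeded the stem gate by 0.62 (0.23 to 1.00) on the log2 scale, while in WT these gates were not separated. Within each library the stem gate lay above the lymphoid gate, by 0.32 on the log2 scale both in WT (0.08 to 0.56) and in KO (0.01 to 0.63). It lay above the erythroid gate by 1.60 (1.43 to 1.76) in WT and 1.73 (1.52 to 1.94) in KO.

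Nfkb2, the p100 and p52 gene, was low in most gates. It measured 7.44 CPM (5.64 to 9.64) in WT and 11.8 (8.83 to 15.5) in KO stem cells. Its highest levels were 19.6 CPM in WT and 13.4 in KO endothelial cells, and 13.3 and 15.0 in macrophages. The lymphoid gate had 4.19 and 2.54 CPM, the neutrophil gate 3.84 and 6.45, the erythroid gate 3.66 and 4.57, the megakaryocyte gate 4.06 and 6.52, and the hepatocyte gate 4.21 and 5.996. No neighbouring pair was separated in either library. The stem gate nonetheless exceeded the erythroid gate by 1.02 (0.57 to 1.46) on the log2 scale in WT and 1.37 (0.91 to 1.81) in KO.

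The makeup of the family differed between lineages. In the stem gate Nfkb1 made up 49.8% (46.5 to 53.2) of the UMIs of the 5 genes in WT and 46.1% (41.8 to 50.4) in KO, with Rela at 21.7% and 20.9% and Rel at 18.7% and 15.0%. In the erythroid gate Rela led with 51.5% (49.6 to 53.4) in WT and 52.3% (50.3 to 54.3) in KO, and Rel made up 1.23% and 1.41%. Megakaryocytes resembled erythroid cells in the low share of Rel, at 1.14% and 2.56%. Their Rela share was 46.6% (35.9 to 57.5) in WT and 48.7% (39.4 to 58.1) in KO. Nfkb1 stood beside it at 45.5% (34.8 to 56.4) and 32.5% (24.1 to 41.8), so Rela did not clearly lead in WT. Rela also ranked first in the hepatocyte gate, at 40.0% and 35.9%, from 14 and 23 UMIs. In lymphoid and neutrophil cells Rel made up between 20.3% and 27.1%. Relb was 3.31% (2.23 to 4.71) of the family in WT stem cells and 8.27% (6.07 to 10.9) in KO stem cells, and was 12.5% and 16.1% in endothelial cells.

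**Figure D2:**
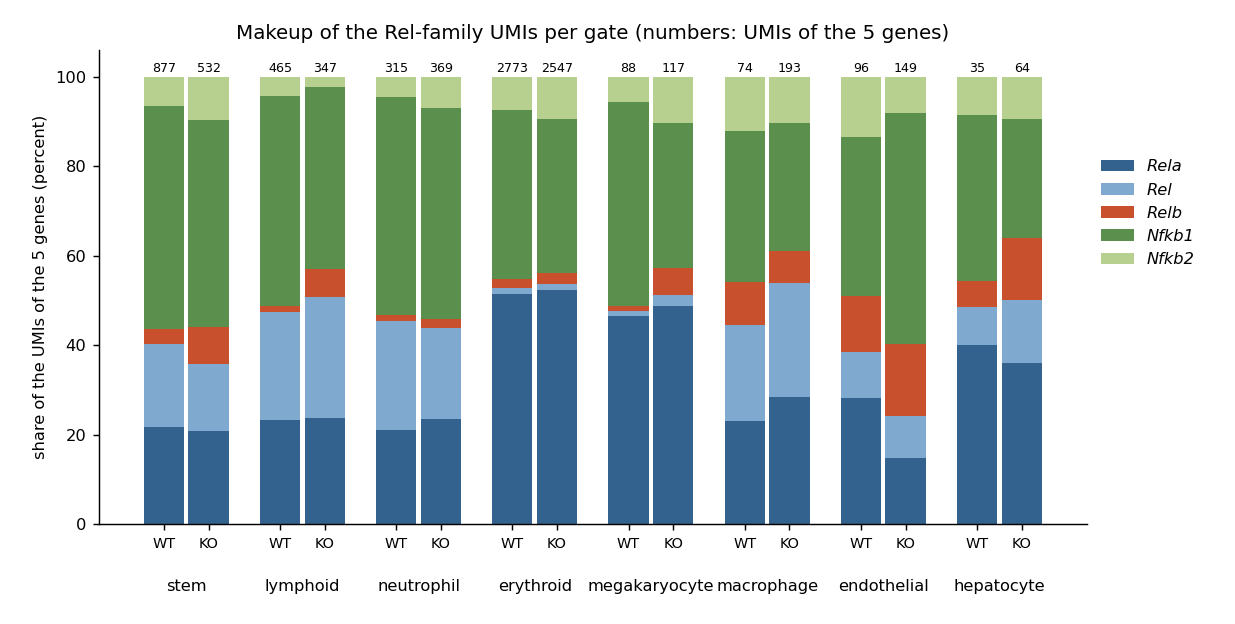
Share of each gene in the summed UMIs of the 5 genes (percent), WT and KO side by side for each gate, with the number of UMIs above each bar. Rela makes up 51.5% and 52.3% in the erythroid gate, and Nfkb1 49.8% and 46.1% in the stem gate.

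KO was then compared with WT within each gate. A gene was called past the fold at 0.5 or more on the log2 scale in either direction, with at least 20 UMIs in both libraries together, and 33 of the 40 pairs of gene and gate reached that minimum. Of these, 8 were higher and 4 lower in KO past the fold. Among all genes the share past the fold differed by gate. It ran from 5.01% (stem) to 23.8% (macrophage) higher, and from 3.24% (erythroid) to 13.1% (endothelial) lower. In 34 of the 40 pairs the interval of the ratio included 0. The erythroid gate, with the most UMIs, had 0 of 5 genes past the fold, against 6.45% of all genes higher and 3.24% lower there.

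**Figure D3:**
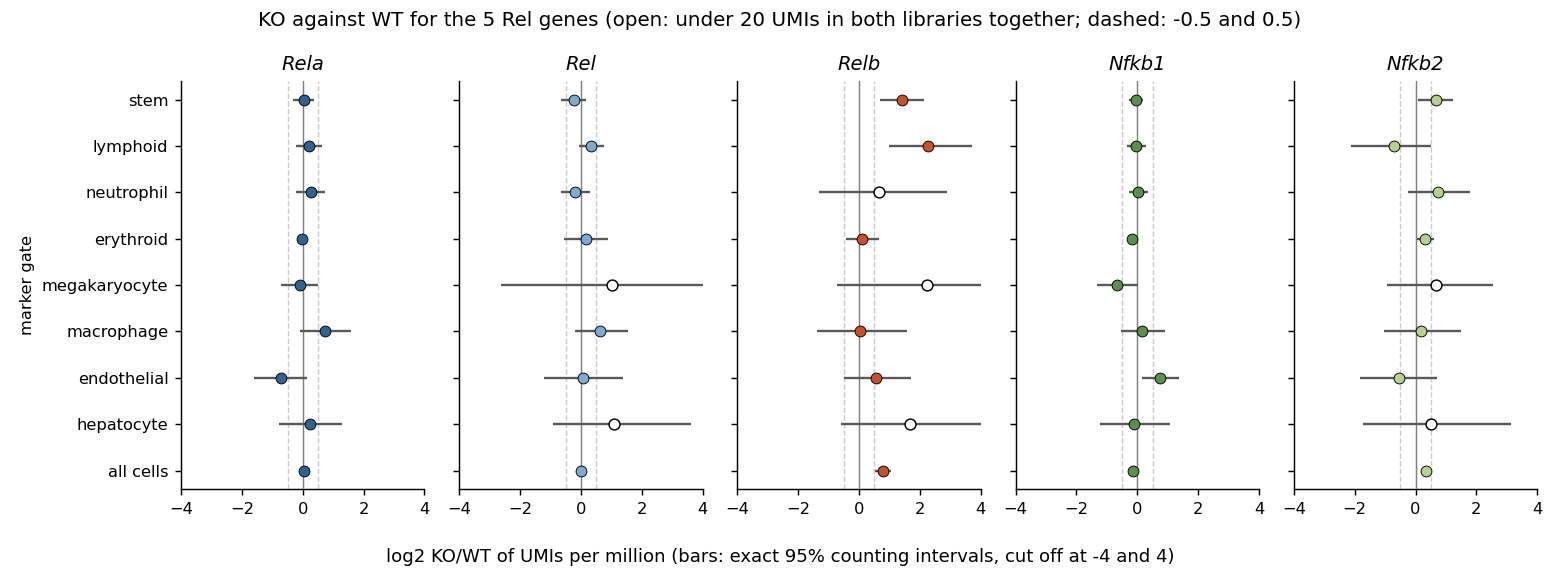
log2 KO/WT of CPM for each gene in the 8 gates and over all cells, with bars for exact 95% counting intervals and open points for pairs under 20 UMIs. Relb is at 1.40 in the stem gate and 2.25 in the lymphoid gate, and near 0 in the erythroid (0.11) and macrophage (0.02) gates, where its direction turns under other settings, while Rela, Rel and Nfkb1 lie near 0 in the stem gate.

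In the stem gate 2 of 5 genes were higher in KO past the fold, Relb and Nfkb2, and 0 were lower. Among all genes at the minimum in that gate 5.01% were higher and 5.82% lower. Relb was higher by 1.40 (0.69 to 2.13) on the log2 scale, or 2.64-fold, and Nfkb2 by 0.67 (0.10 to 1.24), or 1.59-fold. Rela differed by 0.02 (-0.33 to 0.37), Nfkb1 by -0.03 (-0.27 to 0.19) and Rel by -0.24 (-0.64 to 0.16). The sum of the 5 genes differed by 0.08 (-0.08 to 0.24).
The Relb UMIs were spread over many cells, 28 in WT and 37 in KO, with at most 2 UMIs in a WT cell and 4 in a KO cell. After thinning, 3.48% (1.92 to 5.77) of WT and 7.17% (4.37 to 10.97) of KO stem cells had a Relb UMI. The shares before thinning were 6.70% and 11.6%, at medians of 17088 and 12183 UMIs per cell. On thinned cells the Nfkb2 difference was 0.28 (-0.49 to 1.04), under the fold.

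In the lymphoid gate Relb was again higher in KO, with 7 UMIs in WT and 22 in KO, each in a different cell, and a log2 ratio of 2.25 (0.97 to 3.72). It was the 1 gene of 5 past the fold upward, where 6.68% of all genes were. Nfkb2 was the 1 gene past the fold downward, against 6.30% of all genes, with 20 UMIs in WT and 8 in KO and a ratio of -0.72 (-2.12 to 0.52), which turned to 0.17 under a stricter gate. Rel differed by 0.35 (-0.07 to 0.75), Rela by 0.20 (-0.23 to 0.63) and Nfkb1 by -0.03 (-0.35 to 0.28).

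In the neutrophil gate Nfkb2 alone was past the fold upward (0.75, -0.24 to 1.80), 1 of 4 genes at the minimum against 5.82% of all genes, and 0 were lower, against 6.43%. In the megakaryocyte gate 2 genes reached the minimum, and Nfkb1 was lower by -0.65 (-1.33 to 0.02), where 9.82% of all genes were lower. With gates set on thinned cells this value turned to 0.13. The macrophage gate had Rela (0.72, -0.09 to 1.60) and Rel (0.64, -0.20 to 1.55) higher in KO, 2 of 5 genes against 23.8% of all genes, with 0 lower against 9.58%, and its median over all genes was itself shifted to 0.12. In these 3 gates the interval of every single gene included 0. The sum of the 5 genes in the macrophage gate differed by 0.41 (0.01 to 0.81). The hepatocyte gate had 0 of 2 genes past the fold, against 13.5% higher and 9.65% lower among all genes.

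In the endothelial gate Nfkb1 had 34 UMIs in WT and 77 in KO and was higher in KO by 0.74 (0.14 to 1.37) on the log2 scale. Relb was higher by 0.57 (-0.49 to 1.70), making 2 of 5 genes past the fold upward against 12.7% of all genes. Rela (-0.73, -1.61 to 0.14) and Nfkb2 (-0.55, -1.81 to 0.70) were lower past the fold, against 13.1% of all genes. In the erythroid gate Nfkb1 was lower in KO by -0.17 (-0.30 to -0.04) and Nfkb2 higher by 0.32 (0.04 to 0.60), both within the fold, while Relb differed by 0.11 (-0.43 to 0.65), Rel by 0.17 (-0.55 to 0.89) and Rela by -0.02 (-0.12 to 0.09).

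The Relb ratio was above 0 in 8 of 8 gates, with the interval above 0 in 2 of them, and 3 of the 8 (neutrophil, megakaryocyte and hepatocyte) were under 20 UMIs. Its direction turned in the erythroid gate under 4 of 13 alternatives, to -0.33 at the lowest, and in the macrophage gate under 3 of 12, to -0.21 at the lowest. Its interval in the stem gate (0.69 to 2.13) did not overlap that in the erythroid gate (-0.43 to 0.65), and the difference between gates was not tested. In the cells that passed no gate Relb measured 2.70 CPM in WT and 4.69 in KO (log2 0.80, 0.31 to 1.29), 1 of 5 genes past the fold upward against 6.51% of all genes. Over all kept cells, which include those that passed more than 1 gate, Relb measured 1.95 and 3.34 CPM (0.78, 0.52 to 1.03). Among all genes 6.76% were higher there. The gates differed in their part of the cells. The stem gate held 12.1% of WT and 7.20% of KO cells, and the macrophage gate 0.81% and 1.68%. The part of this makeup in the ratios over all cells was not tested. Over all cells Nfkb2 differed by 0.36 (0.18 to 0.53), Nfkb1 by -0.14 (-0.21 to -0.06), Rel by -0.01 (-0.16 to 0.13) and Rela by 0.03 (-0.05 to 0.11), and the sum of the 5 genes by 0.01 (-0.04 to 0.06).

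Sex and embryo cannot be told apart from genotype in full, because male cells occurred almost only in the KO library. Relb was therefore read in female and male KO cells. In the stem gate 241 female KO cells held 39 Relb UMIs (11.8 CPM) and 42 male cells held 1 UMI (1.61 CPM), a log2 difference of -2.87 (-8.21 to -0.30) for male against female. The male value was also below the 3.79 CPM of WT, by -1.23 (-6.58 to 1.36). Against WT, female KO cells alone gave 1.62 (0.89 to 2.36).
In the lymphoid gate female and male KO cells were alike in level, at 6.91 and 7.16 CPM, from 18 and 3 UMIs, with a difference of 0.05 (-2.36 to 1.83). In the erythroid gate they had 1.00 and 1.62 CPM (0.70, -0.23 to 1.57), and in cells without a gate 5.40 and 2.77 CPM (-0.96, -2.14 to 0.04). Over all cells female KO cells had 3.61 and male KO cells 2.25 CPM of Relb (-0.68, -1.21 to -0.19). Rel (-0.54, -0.86 to -0.23), Nfkb1 (-0.23, -0.39 to -0.08) and the sum of the 5 genes (-0.16, -0.25 to -0.06) were also lower in male KO cells. Rela (0.07, -0.08 to 0.22) and Nfkb2 (-0.13, -0.47 to 0.20) did not separate the sexes over all cells. Rel also differed in KO stem cells, at 20.2 CPM in female and 8.07 in male cells, the latter from 5 UMIs (-1.33, -3.00 to -0.03). Nfkb2 did not separate the sexes in the stem gate, with 10.9 and 12.9 CPM (0.25, -1.07 to 1.38). In the lymphoid gate Nfkb2 had 1.54 CPM in female and 9.55 in male KO cells, from 4 UMIs each (2.64, 0.21 to 5.06). Male KO cells came from at least 1 embryo of the pool, and the part of single embryos in the Relb difference was not tested.

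**Figure D4:**
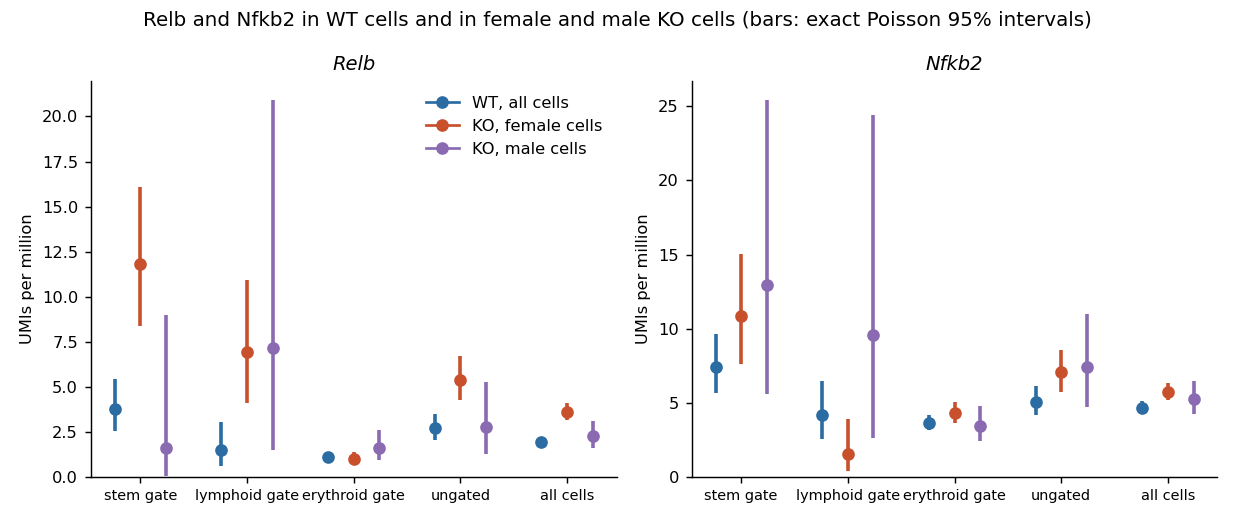
CPM of Relb and Nfkb2 in WT cells (blue), female KO cells (red) and male KO cells (purple), with bars for exact Poisson 95% intervals, in 3 gates, in cells without a gate and over all cells. Relb in the stem gate is 11.8 CPM in female and 1.61 CPM in male KO cells against 3.79 CPM in WT.

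Markers of cell types with higher Relb, and of dendritic cells, were checked in the same gate. The 6 macrophage markers summed to 7.83 CPM in WT and 9.32 in KO stem cells, and the 6 endothelial markers to 10.4 and 9.09 CPM. The 6 monocyte and dendritic markers summed to 16.2 CPM in WT, with Siglech and H2-Aa at 0, and to 25.5 CPM in KO, with Siglech at 0. Of the other lists, the hepatocyte markers summed to 59.1 CPM in WT and 100.5 in KO, the mast cell and basophil markers to 5.48 and 12.7, and the stromal markers to 18.3 and 1.14, and their part in the Relb difference was not tested. Cells that held a UMI of any of the 18 macrophage, endothelial, and monocyte and dendritic markers were then left out. Relb had 18 UMIs in the remaining WT and 27 in the remaining KO stem cells, and the ratio was 1.28 (0.36 to 2.22). In the lymphoid gate the macrophage markers summed to 26.6 and 19.3 CPM and the monocyte and dendritic markers to 140.2 and 150.6 CPM. The mast cell and basophil markers there summed to 0.63 CPM in WT, with 5 of 6 at 0, and 6.03 in KO, the hepatocyte markers to 44.0 and 63.1, and the stem and neutrophil markers to 62.2 and 288.5 in WT against 35.5 and 215.0 in KO. Their part in the Relb difference was not tested. In that gate the same step left 3 and 7 Relb UMIs, with a ratio of 1.44 (-0.69 to 4.02).

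**Figure D5:**
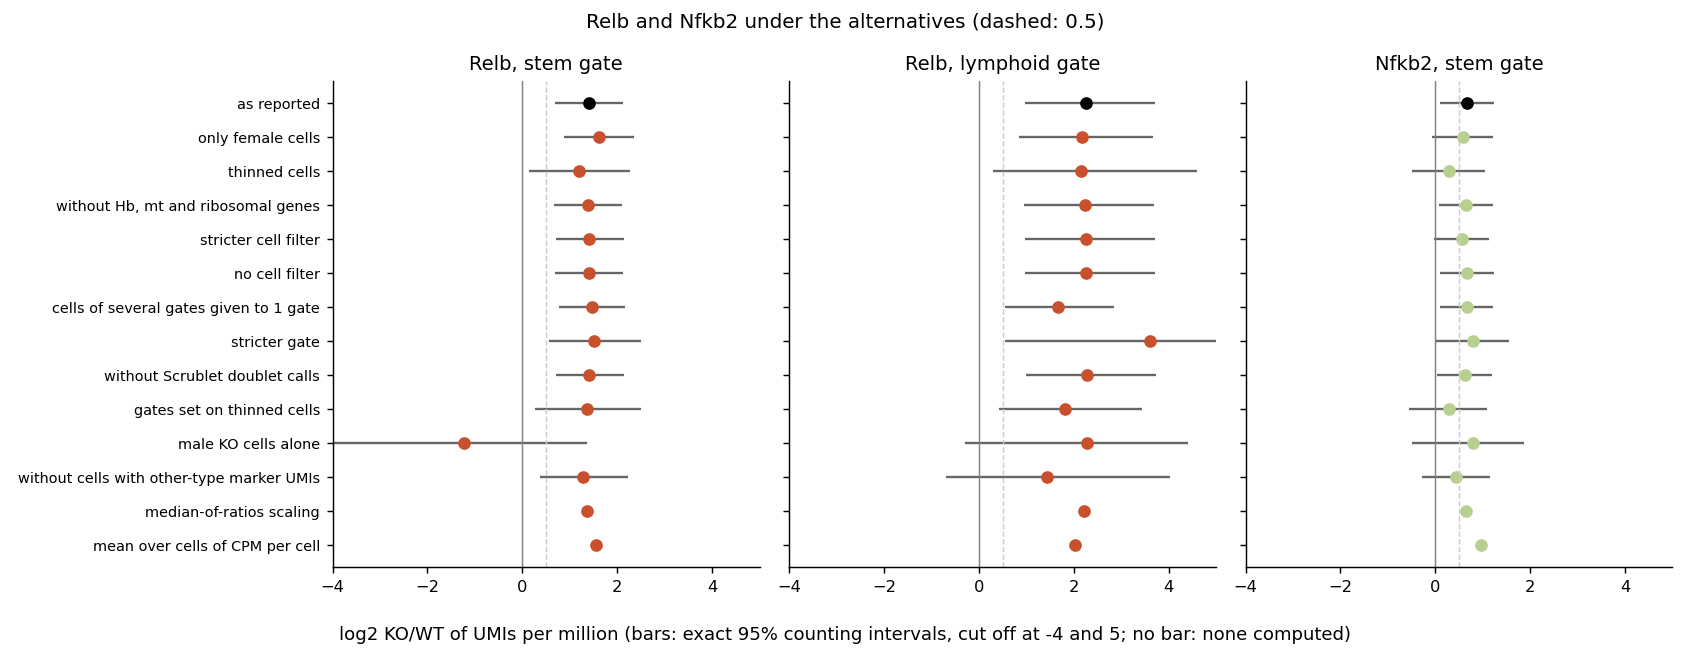
log2 KO/WT of Relb in the stem and lymphoid gates and of Nfkb2 in the stem gate as reported (black) and under 13 other settings, with bars for exact 95% counting intervals where one was computed. Relb in the stem gate lies between 1.19 and 1.62 except in male KO cells, at -1.23, and Nfkb2 ranges from 0.28 to 0.96.

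The other genes of the pathway were followed in 4 lists, whose counts in the stem gate stand beside 5.01% of all genes higher and 5.82% lower. Of the 6 IκB genes, all at the minimum in the stem gate, 0 were higher and 1 was lower past the fold, with a list median of 0.03 against 0.02 over all genes. The 1 lower gene was Nfkbia itself, with 169 UMIs in WT and 0 in KO stem cells, at least 32.4-fold lower against a floor of 3 counts in the gate. The inhibitors Nfkbib (23.0 CPM in WT and 25.5 in KO) and Nfkbie (7.97 and 9.55 CPM) were within the fold.
Of 12 kinases and adaptors, 1 was higher and 0 were lower, with a median of 0.08. The 1 was Traf3, an adaptor that holds NIK down, with 11.2 CPM in WT and 16.4 in KO (0.54, 0.07 to 1.01). Map3k14, which encodes NIK, was within the fold at 5.09 and 3.64 CPM (-0.49, -1.42 to 0.39). With median-of-ratios scaling 1 gene of this list was lower past the fold.

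Of 14 receptors and ligands, 8 reached the minimum in the stem gate, 2 were higher and 0 lower, and the median was -0.03. Ltb, which encodes lymphotoxin beta, a ligand that feeds the non-canonical route, had 166 CPM in WT and 288 CPM in KO stem cells, a log2 ratio of 0.79 (0.68 to 0.91), with UMIs in 329 and 278 cells. It was also higher in KO in the lymphoid gate, by 1.10 (0.84 to 1.37), in the neutrophil gate, by 2.73 (1.72 to 3.92), and in the erythroid gate, by 0.77 (0.43 to 1.12). The erythroid UMIs lay in 46 of 1508 WT and 71 of 2030 KO cells, with up to 25 and 16 in 1 cell. The megakaryocyte gate had 10 WT and 16 KO Ltb UMIs, the macrophage gate 13 and 47, the endothelial gate 4 and 14, and the hepatocyte gate 2 and 0. Tnf, the ligand of the canonical route, had 9 and 11 UMIs (1.09, -0.32 to 2.54).
Of 16 known target genes, 11 reached the minimum in the stem gate, 2 were higher and 1 lower, and the median was 0.15. Ccl5, a chemokine, had 0 UMIs in WT and 74 in KO stem cells, but all 74 lay in 3 cells, with 46 in 1 of them. Tnfaip3, which encodes the inhibitor A20, had 11 and 10 UMIs (0.66, -0.73 to 2.04), and Gadd45b, a stress-response gene, had 15 and 5 (-0.78, -2.60 to 0.75). With a minimum of 100 UMIs, 8 targets were left, of which 0 were higher and 0 lower, and 1 of 4 receptors and ligands was higher.
In the lymphoid gate the same lists had 1 higher and 1 lower of 6 IκB genes, 1 and 0 of 12 kinases and adaptors, 2 and 2 of 9 receptors and ligands, and 0 and 0 of 8 targets. Among all genes there 6.68% were higher and 6.30% lower. The list medians were 0.10, -0.06, -0.16 and -0.03, against 0.02 over all genes. In the erythroid gate the counts were 1 and 2 of 6, 1 and 0 of 12, 3 and 0 of 7, and 1 and 1 of 10, with medians of -0.03, -0.01, 0.25 and 0.01, against 0.0025 over all genes, of which 6.45% were higher and 3.24% lower. With median-of-ratios scaling the kinases and adaptors in the lymphoid gate counted 1 higher and 2 lower.

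The pattern of each gene over the 8 gates was compared between the libraries and with 9352 other genes, as Pearson's r of log2(CPM + 1) over 8 gates. These are descriptions, since the gates of a library share its depth and free RNA. The WT and KO patterns of the same gene had r = 0.97 for Rel, 0.91 for Nfkb1, 0.86 for Relb, 0.82 for Nfkb2 and 0.28 for Rela, whose range was the narrowest. The genes most like Rel were Rnf130 (r = 0.95 in both libraries), E030030I06Rik (0.99 in WT and 0.94 in KO) and Psenen (0.94 and 0.92). Those most like Nfkb1 were Cggbp1 (0.98 and 0.94), Adgrl4 (0.94 and 0.94) and Elk3 (0.94 and 0.97).
Relb was closest to Sh3gl1 (0.96 and 0.93), Luzp1 (0.93 and 0.91) and Fcho2 (0.93 and 0.91), and Nfkb2 to Capns1 (0.92 and 0.87), Ccdc88a (0.87 and 0.88) and Tmem106b (0.86 and 0.86). Rela was closest to Fam76a (0.86 and 0.88), Fbxo46 (0.79 and 0.77) and Srxn1 (0.77 and 0.83). Relb and Nfkb2 followed each other with r = 0.97 in WT and 0.57 in KO, and Rel and Nfkb1 with 0.75 and 0.72.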

How the data were processed

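Fetal liver LSK cells of 1 WT and 1 IκBα KO library were profiled by 10x single-cell RNA sequencing. The authors aligned the reads with Cell Ranger 6.0.0 to GRCm38 (mm10) and deposited unnormalised UMI counts, which were used as they stand. Cells under 1000 genes or over 20% mitochondrial UMIs were left out.

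A cell entered the stem gate with Hlf and at least 3 of 6 markers, the lymphoid gate with 2, and the neutrophil, erythroid, megakaryocyte, macrophage and endothelial gates with 3 at 2 or more UMIs each, and the hepatocyte gate with 4 at 2 or more. Cut-offs were settled on the markers after their values were seen. Scrublet, run in scanpy 1.11.5 with 5% doublets expected, marked likely doublets (3.90% of WT and 5.80% of KO cells), which were kept, except in an alternative. Female cells had Xist and no Y-linked UMI, male cells the reverse. Cells were thinned to 8000 UMIs for shares, leaving out 115 WT and 326 KO cells with fewer.

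UMIs were summed per gate, with exact Poisson intervals for CPM, exact conditional (Clopper-Pearson) intervals for log2 KO/WT, and Clopper-Pearson intervals for shares, computed in scipy 1.17.1 and tested on simulated counts. The text names the 5 genes in every gate, Nfkbia, the listed pathway genes past the fold in the stem gate (at most 6 per list), and the 3 genes with the highest lower correlation of both libraries among genes with at least 200 UMIs in each. Nfkbib, Nfkbie, Map3k14 and the gene pairs at the end were named after their values were seen. The members and lists were chosen with earlier results of these data known. Alternatives covered sex, thinning, scaling, cell filter, gate rules and doublets.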

Additional observations from a re-analysis of the deposited data

Results flagged for a closer look

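Nfkb1 differed from WT in opposite directions in 2 gates, with the counting interval above 0 in one and below 0 in the other. In the endothelial gate the log2 KO/WT was 0.74 (0.14 to 1.37), from 34 WT and 77 KO UMIs. In the erythroid gate it was -0.17 (-0.30 to -0.04), from 1048 and 879 UMIs. The difference between the gates was not tested. The endothelial value ranged from 0.61 to 0.91 over 12 alternatives and the erythroid value from -0.28 to 0.01 over 13. The endothelial interval included 0 on thinned cells (-0.08 to 1.69) and with male KO cells alone (-0.71 to 1.75). The erythroid interval included 0 on thinned cells (-0.27 to 0.30), under the stricter gate (-0.24 to 0.03) and with gates set on thinned cells (-0.31 to 0.20). It also did so without cells with macrophage, endothelial or monocyte marker UMIs (-0.30 to 0.03).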

How the results depend on the processing

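No paired analysis was possible because WT and KO were 1 library each. Relb in the stem gate was higher in KO under 10 alternatives (1.19 to 1.62), as was Relb in the lymphoid gate (1.67 to 3.60) and Nfkb2 in the stem gate (0.28 to 0.96). Nfkb2 in the stem gate fell below the fold on thinned cells (0.28, -0.49 to 1.04). Its interval also included 0 with female cells (-0.07 to 1.21) and with the stricter cell filter (-0.02 to 1.14). The lymphoid Relb value of 3.60, under the stricter gate, came from 1 WT and 6 KO UMIs. Another 3 settings were chosen after seeing the data. These were gates set on thinned cells, male KO cells alone, and no cells with macrophage, endothelial or monocyte marker UMIs. In that order Nfkb2 in the stem gate gave 0.29 (-0.55 to 1.10), 0.80 (-0.48 to 1.87) and 0.45 (-0.28 to 1.16). Each of these intervals included 0. With male KO cells alone, Relb in the stem gate turned to -1.23, from 1 UMI, Nfkb2 in the lymphoid gate to 1.19, and in the stem gate Rel moved to -1.41, Nfkb1 to -0.28 and the sum of the 5 genes to -0.19. Nfkb2 in the lymphoid gate also turned under the stricter gate (0.17) and with gates set on thinned cells (0.53), where Nfkb1 in the megakaryocyte gate turned to 0.13. Rela in the stem gate moved to -0.38 on thinned cells. The cause was not tested. Relb in the erythroid gate was below 0 with female cells (-0.11), thinned cells (-0.33), no doublet calls (-0.07) and the mean over cells (-0.08), and in the macrophage gate without haemoglobin, mitochondrial and ribosomal protein genes (-0.08), with another scaling (-0.03) and with male KO cells (-0.21). Another scaling (median of ratios) moved no ratio out of its interval, and it shifted ratios by at most 0.06 on the log2 scale. Haemoglobin, mitochondrial and ribosomal protein genes made up between 25.2% (KO hepatocyte gate) and 37.2% (KO erythroid gate) of the UMIs of a gate. Leaving them out raises the CPM of the other genes by the smaller total alone, and moved 41 of 80 CPM levels out of their intervals. Without thinning, cells hold more UMIs, and the shares of cells were outside their intervals in 53 of 80. Depth limits the megakaryocyte, macrophage, endothelial and hepatocyte gates, where 1 library held between 19 and 74 cells.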
